A study of Mus musculus with 12 samples.

Results

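Gm42418, AY036118 and Gm26917 are annotated as long noncoding RNAs of the mouse, and they lie at a ribosomal RNA locus on chromosome 17. They were taken by symbol, and each of the 3 was found once among 31053 listed genes. They were chosen with their levels in these libraries known, so the differences between preparations are given below as a description, without a test. The libraries came from CD45+/CD11b+ live cells sorted from whole brain of male C57BL/6J mice at postnatal day 90, with 1 animal per library, so the libraries of a group were separate animals. ENZ libraries were made by enzymatic digestion with heating and DNC libraries by Dounce homogenization in the cold. INHIB libraries had actinomycin D and triptolide in the perfusion, with anisomycin added during dissection and dissociation, and NONE libraries had no inhibitor. The 4 preparations that resulted, 2 by digestion (ENZ-INHIB and ENZ-NONE) and 2 by Dounce (DNC-INHIB and DNC-NONE), held 3 libraries each. The 12 libraries fell into 2 batches, with 1 or 2 libraries of every preparation in each.

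The files held 28426 barcodes and 33742845 unique molecular identifiers (UMIs, each standing for 1 captured molecule). Barcodes were kept as cells when they held 500 genes or more and 1000 UMIs or more, with no more than 10% of UMIs mitochondrial. This left 18830 cells (66.2%) with 26851505 UMIs, between 855 and 2185 per library. A DNC-NONE library stood apart by its depth, with 855 of 2513 barcodes kept. The 8 microglia markers took 33273 to 38400 CPM in every library (CPM, UMIs per 1000000 UMIs of the library's kept cells), and each list of macrophage, monocyte, neuron, astrocyte, oligodendrocyte, endothelial and red blood cell markers was below 304 CPM. The 4 neutrophil markers reached 749 and 2088 CPM in DNC-NONE replicates 2 and 3 and at most 263 CPM in every other library. Of 27914 distinct barcode sequences, 503 occurred in more than 1 library, with 2 to 16 shared by any pair.

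Ribosomal RNA is transcribed by RNA polymerase I as one long precursor, from which the small-subunit and large-subunit RNAs are cut and trimmed in the nucleolus. Mature ribosomal RNA carries no long poly(A) tail, and 3′ single-cell libraries are primed with oligo(dT), so most of it is not captured. Reads of ribosomal RNA origin can still enter such libraries, by priming at internal A-rich stretches or from molecules given a short tail for degradation by the nuclear exosome. In single-cell work on mouse tissues Gm42418 and AY036118 are commonly filtered out as such reads.

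In the GENCODE annotation of GRCm38, Gm42418 (ENSMUSG00000098178) is a single exon of 1831 bases at chr17:39846958-39848788 on the plus strand. AY036118 (ENSMUSG00000105361) is a single exon of 923 bases at chr17:39847113-39848035 on the minus strand, so it lies wholly within Gm42418 and antisense to it. Gm26917 (ENSMUSG00000097971) lies upstream of Gm42418 on the same strand, as an exon of 3329 bases (its longer transcript) at chr17:39843013-39846341 on the plus strand. All are lincRNAs in this annotation, and none has a coding part or an untranslated region. An annotated ribosomal RNA transcript of 1849 bases, CT010467.1, covers chr17:39846353-39848201 on the minus strand, with 11 bases between its 3′ end and the last base of Gm26917. It shares 1244 bases with Gm42418 (67.9% of Gm42418, on the opposite strand) and holds the whole of AY036118, 923 of 923 bases on its own strand. CT010467.1 is not among the genes of the matrices. RefSeq, on the same build, gives Gm42418 as a synonym of Rn18s-rs5, an 18S ribosomal RNA pseudogene, and places a gene named AY036118 at chr17:39848112-39898385, which does not overlap the GENCODE model counted here. The strand given to CT010467.1 was not checked against a ribosomal RNA sequence.

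**Figure D1:**
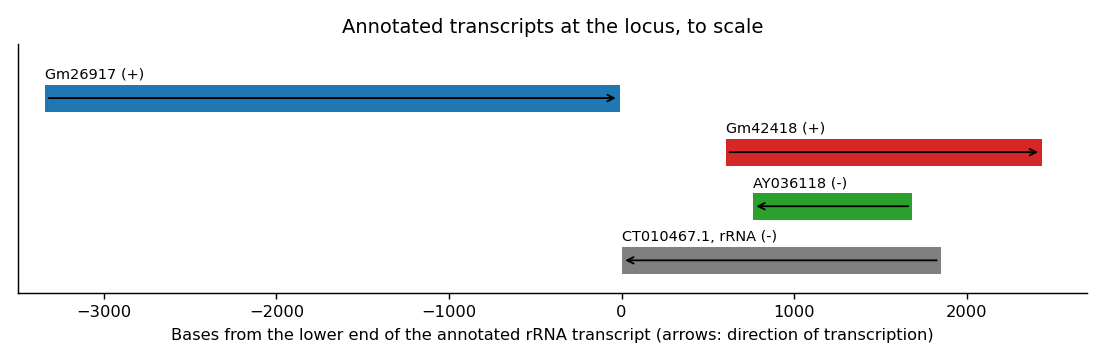
Map of the annotated transcripts, drawn to scale, with distance in bases from the lower end of the annotated rRNA transcript on the x axis and arrows for the annotated direction of transcription. AY036118 (923 bases) lies inside both Gm42418 and the rRNA transcript, and 11 bases separate Gm26917 from the rRNA transcript.

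Because oligo(dT) priming needs A-rich template, the A content of the 3 transcripts was read from the GENCODE sequences. Gm42418 is 60.2% G or C, AY036118 is 54.4% and Gm26917 is 69.1%. The longest run of A in Gm42418 is 6 bases, from position 210 of the transcript. The longest in AY036118 and in Gm26917 is 4 bases. Among 1372 lincRNA transcripts within 20% of the length of Gm42418, 63.1% hold a run of at least 6 A on the transcribed strand. Among 596 lincRNA transcripts within 20% of the length of Gm26917, 3.02% have, like it, no run of 5 A. The corresponding share for AY036118 is 29.4% of 1461 transcripts. The following stretches are shown because they hold the most A-rich bases of each transcript, and the first pair because it shows how one stretch of the genome is read in opposite directions. Capitals mark the run of A, its complement, or the 20 bases that hold most A.
Gm42418, chr17:39847140-39847199, plus strand: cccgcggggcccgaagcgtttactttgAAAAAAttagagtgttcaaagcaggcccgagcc
AY036118, chr17:39847140-39847199, minus strand: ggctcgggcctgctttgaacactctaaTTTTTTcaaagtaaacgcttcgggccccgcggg
AY036118, chr17:39847221-39847280, minus strand: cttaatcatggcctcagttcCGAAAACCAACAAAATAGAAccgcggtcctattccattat
Gm26917, chr17:39845136-39845195, plus strand: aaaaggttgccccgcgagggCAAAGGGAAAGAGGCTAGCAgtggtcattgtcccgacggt
The 20 capital bases of AY036118 hold 13 A and those of Gm26917 hold 9, and the richest 20 bases of Gm42418, which begin at its run of A, hold 11. These are descriptions of sequence, since the files give no read positions. A read in the shared 923 bases belongs to Gm42418 or to AY036118 by strand alone. The strand setting of the counting was not given in the sources used here. The counting program (Cell Ranger) leaves out reads that fit both genes, and AY036118 lies wholly within Gm42418. Counting without strand would therefore have left AY036118 without UMIs, whereas 532 were deposited, so these reads were divided by strand. Which strand was taken as sense was not checked.

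All 3 transcripts were rare. Over all deposited barcodes there were 1796 UMIs of Gm42418, 1488 of Gm26917 and 532 of AY036118, and kept cells held 1363, 1064 and 364 of them. Gm42418 was the member whose level followed the method of dissociation. In the Dounce libraries its level was 31.6, 42.3 and 41.6 CPM without inhibitors (DNC-NONE) and 33.3, 34.6 and 29.7 CPM with them (DNC-INHIB). In the digested libraries it was 71.6, 62.5 and 62.6 in ENZ-NONE and 79.2, 70.1 and 58.9 in ENZ-INHIB. The lowest digested library therefore lay above the highest Dounce library, and the means were 67.5 ± 7.54 and 35.5 ± 5.27 CPM (SD, n = 6 each). Of 9884 genes tested, 0.293% were likewise higher in all digested than in all Dounce libraries without overlap.

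**Figure D2:**
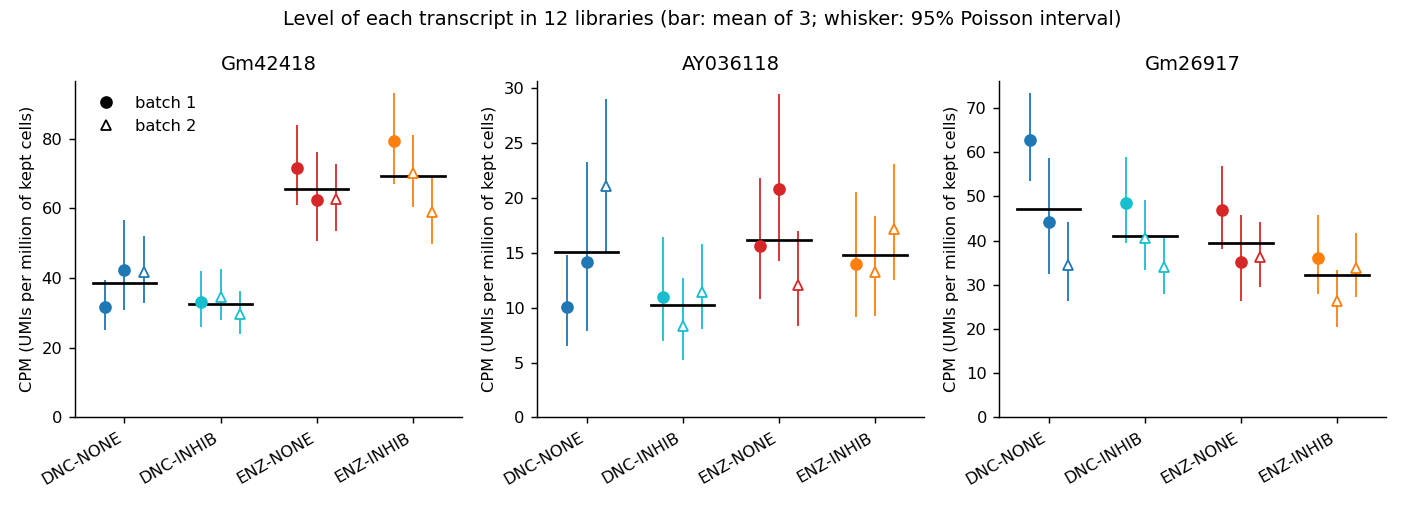
CPM in kept cells (y axis) for each transcript in each library, by preparation (x axis), with filled circles for batch 1, open triangles for batch 2, bars for the mean of 3 libraries and whiskers for 95% Poisson intervals. Gm42418 lies between 58.9 and 79.2 in the digested libraries and between 29.7 and 42.3 in the Dounce libraries, the DNC-INHIB libraries lie below the digested ones for AY036118 while DNC-NONE overlaps them, and the preparations overlap for Gm26917.

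In the fit over all genes (edgeR), the log2 fold change of Gm42418 was 1.10 ± 0.13 (SE) for ENZ-INHIB against DNC-INHIB and 0.85 ± 0.14 for ENZ-NONE against DNC-NONE. In these contrasts 0.223% and 0.526% of genes passed an adjusted p of 0.05. The inhibitor contrasts of Gm42418 were smaller. The log2 fold change was 0.03 ± 0.12 for ENZ-INHIB against ENZ-NONE, where 0.324% of genes passed, and -0.21 ± 0.15 for DNC-INHIB against DNC-NONE, where 0% passed. Each preparation enters 2 of these contrasts, so they share libraries. From low to high the mean levels ran DNC-INHIB (32.5 ± 2.53), DNC-NONE (38.5 ± 6.00), ENZ-NONE (65.6 ± 5.24) and ENZ-INHIB (69.4 ± 10.2 CPM, SD, n = 3 each), and the libraries of the first pair overlapped, as did those of the last pair. Since the methods did not overlap over all libraries, they were also separate inside each batch, which adds no further support. In batch 1 the digested libraries held 62.5 to 79.2 and the Dounce libraries 31.6 to 42.3 CPM, and in batch 2 they held 58.9 to 70.1 and 29.7 to 41.6.

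AY036118, the antisense neighbour, did not separate the methods. Its level was 10.0, 14.1 and 21.1 CPM in the DNC-NONE libraries and 10.9, 8.36 and 11.4 CPM in the DNC-INHIB libraries. With digestion it was 15.6, 20.8 and 12.1 CPM (ENZ-NONE) and 14.0, 13.2 and 17.2 CPM (ENZ-INHIB). The DNC-INHIB libraries lay below all 6 digested libraries, as they did for 1.57% of genes, and the DNC-NONE libraries overlapped both digested preparations. The log2 fold change was 0.54 ± 0.26 for ENZ-INHIB against DNC-INHIB and 0.13 ± 0.26 for ENZ-NONE against DNC-NONE. The inhibitor contrasts gave -0.11 ± 0.25 within digestion and -0.52 ± 0.27 within Dounce. Each library held only 15 to 44 UMIs of AY036118 in kept cells. The highest Dounce value came from DNC-NONE replicate 3, and without it the contrast of ENZ-NONE with DNC-NONE became 0.50 ± 0.29 and that of DNC-INHIB with DNC-NONE -0.14 ± 0.30. This library was also the one with most neutrophil marker UMIs (2088 CPM), and their part in its value was not tested.

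Gm26917, upstream of Gm42418, gave lower point estimates in the digested libraries, with overlap throughout. Its level was 62.8, 44.2 and 34.4 CPM in DNC-NONE libraries and 48.5, 40.7 and 34.0 CPM in DNC-INHIB libraries. It was 46.8, 35.1 and 36.3 in ENZ-NONE and 36.1, 26.4 and 33.9 in ENZ-INHIB. The log2 fold change was -0.34 ± 0.19 for ENZ-INHIB against DNC-INHIB and -0.25 ± 0.19 for ENZ-NONE against DNC-NONE. The inhibitor contrasts gave -0.35 ± 0.20 within digestion and -0.26 ± 0.19 within Dounce. Both NONE preparations had 2 libraries in batch 1 and 1 in batch 2, and both INHIB preparations the reverse. These contrasts have no batch term, and Gm26917 had a lower mean in batch 2 in each preparation, as given below. With batch as a covariate they moved by less than the spread between replicates. DNC-NONE replicate 1, with the highest level, decided the direction in its group. Without it the contrast of ENZ-NONE with DNC-NONE was 0.09 ± 0.20 and that of DNC-INHIB with DNC-NONE 0.08 ± 0.19. The sum of the 3 transcripts was 92.3 ± 11.05 CPM in the Dounce and 119 ± 10.6 in the digested libraries (SD, n = 6 each).

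The batches had not been used to choose the members, so this contrast was tested with preparation in the model. None of the 3 members passed an adjusted p of 0.05 (edgeR quasi-likelihood test), against 3.47% of all genes, and 1 of 3 had an unadjusted p below 0.05, against 14.3% of all genes. That member was Gm26917, which averaged 45.6 ± 10.1 CPM in batch 1 and 34.3 ± 4.63 in batch 2 (SD, n = 6 each). Its log2 difference, batch 2 minus batch 1, was -0.34 ± 0.12 (SE), with an unadjusted p of 0.00758 and an adjusted p of 0.125 from edgeR. In all deposited barcodes, before the cell filter, its batch difference was -0.46 ± 0.10 and passed (adjusted p = 0.00571 by edgeR). The batch 1 mean of kept cells exceeded the batch 2 mean in each of the 4 preparations, with 53.5 against 34.4 in DNC-NONE, 48.5 against 37.3 in DNC-INHIB, 41.0 against 36.3 in ENZ-NONE and 36.1 against 30.1 CPM in ENZ-INHIB. Gm42418 differed between batches by -0.04 ± 0.10 (adjusted p = 0.904 by edgeR) and AY036118 by 0.10 ± 0.19 (adjusted p = 0.882 by edgeR). DESeq2 called none of the members and gave no adjusted p for AY036118 and Gm26917.

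Across libraries the members did not rise and fall as 1 group. Over the 12 libraries the log2 level of Gm42418 had a Pearson r of 0.52 with AY036118, rank 689 among 9883 other genes, and of -0.46 with Gm26917. AY036118 and Gm26917 gave -0.41. These values are descriptions, since all are shares of the same libraries. The r values with Gm42418, here and for the genes below, were taken over both methods, between which Gm42418 did not overlap. A gene that differs between the methods can therefore reach a high r without following Gm42418 within a method. Among the 5 genes whose pattern was most like that of Gm42418 were Klhl7 (r = 0.91), Tspan18 (0.90), P4hb (0.89) and BC037034 (0.88). P4hb encodes a protein disulfide isomerase of the endoplasmic reticulum and Tspan18 a tetraspanin. Klhl7, a substrate adaptor of a ubiquitin ligase, had mean levels of 33.8 in DNC-NONE, 32.5 in DNC-INHIB, 39.7 in ENZ-NONE and 42.8 CPM in ENZ-INHIB, a smaller spread between methods than that of Gm42418. Of the 5 genes, 3 were also among the 5 most alike by Spearman's rho.

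A cell seldom held more than 1 UMI of a member. Gm42418 was seen in 1281 of 18830 kept cells, Gm26917 in 1012 and AY036118 in 360. Per library, 4.17% to 5.16% of Dounce cells and 7.86% to 10.2% of digested cells held a UMI of Gm42418. After each cell was thinned to 1000 UMIs these ranges became 2.47% to 3.87% and 5.23% to 7.43%, still without overlap. The highest number in one cell was 3 UMIs for Gm42418, 4 for Gm26917 and 2 for AY036118. Given each cell's depth and the level of its library, 56.0 cells with at least 2 UMIs of Gm42418 would arise by counting alone, and 81 were found. The numbers for Gm26917 were 31.8 and 45, and for AY036118 3.96 and 4. At 1000 UMIs per cell, 40 cells held both Gm42418 and Gm26917 where 32.9 would if the transcripts were spread independently within libraries. For Gm42418 with AY036118 the counts were 10 and 13.4, and for AY036118 with Gm26917 12 and 9.91. No nucleated cell type lacks ribosomal RNA, and the red blood cell markers reached at most 2.34 CPM in a library. The share of these UMIs that came from free RNA could therefore not be estimated from a cell type without the gene.

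Most kept cells were microglia by their markers. In the 17930 cells with at least 3 of the 8 microglia markers, Gm42418 stood at 51.4 CPM (95% Poisson interval 48.7 to 54.3, counting error only). In 161 cells with at least 3 border macrophage markers it stood at 34.2 (15.6 to 64.9), from 9 UMIs. In 81 cells with at least 3 monocyte markers it stood at 11.3 (1.37 to 41.0), from 2 UMIs. The cells of these classes came unevenly from the libraries, and some held markers of more than one class, so the values are given as a description.

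The clearest relation inside libraries was with barcodes under 1000 UMIs, of which 5303 held at least 750. In the 9575 deposited barcodes with under 1000 UMIs, which the cell filter removed, all 3 transcripts took a larger share of UMIs than in the kept cells of the same library. For AY036118 the mean log2 ratio was 0.81 ± 0.42 (SD, n = 12), and it was above 0 in 12 of 12 libraries (exact sign-flip test over libraries, two-sided, p = 0.000488, the smallest that 12 libraries allow, adjusted p = 0.00439 over 18 tests). For Gm26917 it was 0.57 ± 0.23, also above 0 in 12 of 12 libraries (exact test, adjusted p = 0.00439). For Gm42418 it was 0.45 ± 0.37, above 0 in 11 of 12 libraries (exact test, adjusted p = 0.0117). The exception for Gm42418 was DNC-NONE replicate 3, with 35.2 CPM in shallow barcodes and 41.6 in kept cells. The median gene had a ratio of 0.01, and 2.43% of 9884 genes were higher in the shallow barcodes of every library. The share of genes with a mean ratio at least as high was 0.718% for AY036118, 2.97% for Gm26917 and 6.20% for Gm42418.

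The levels by depth show where the shares rose. Pooled over libraries, Gm42418 stood at 120 CPM (95% Poisson interval 96.4 to 149) in barcodes under 500 UMIs, 58.3 (46.5 to 72.1) from 500 to under 750 and 55.8 (49.3 to 63.0) from 750 to under 1000. In the classes of 1000 UMIs or more it stood at 48.8 to 55.9. AY036118 fell over the same classes from 46.2 (31.8 to 64.9) through 28.4 and 19.9 to between 9.53 and 16.6 in deeper barcodes. Gm26917 stood at 70.0 (52.0 to 92.3), 69.4 and 58.2 below 1000 UMIs and at 35.9 to 43.5 above. In the shallowest class ENZ-INHIB stood apart for Gm42418, with 224 (160 to 304), beside 110 (71.1 to 162) in ENZ-NONE, 71.7 (34.4 to 132) in DNC-INHIB and 65.5 (32.7 to 117) in DNC-NONE. The ENZ-INHIB value rests on 40 UMIs. When only barcodes of at least 500 and under 1000 UMIs were set against kept cells, the ratio of Gm42418 was 0.32 and no longer passed (adjusted p = 0.0923).

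**Figure D3:**
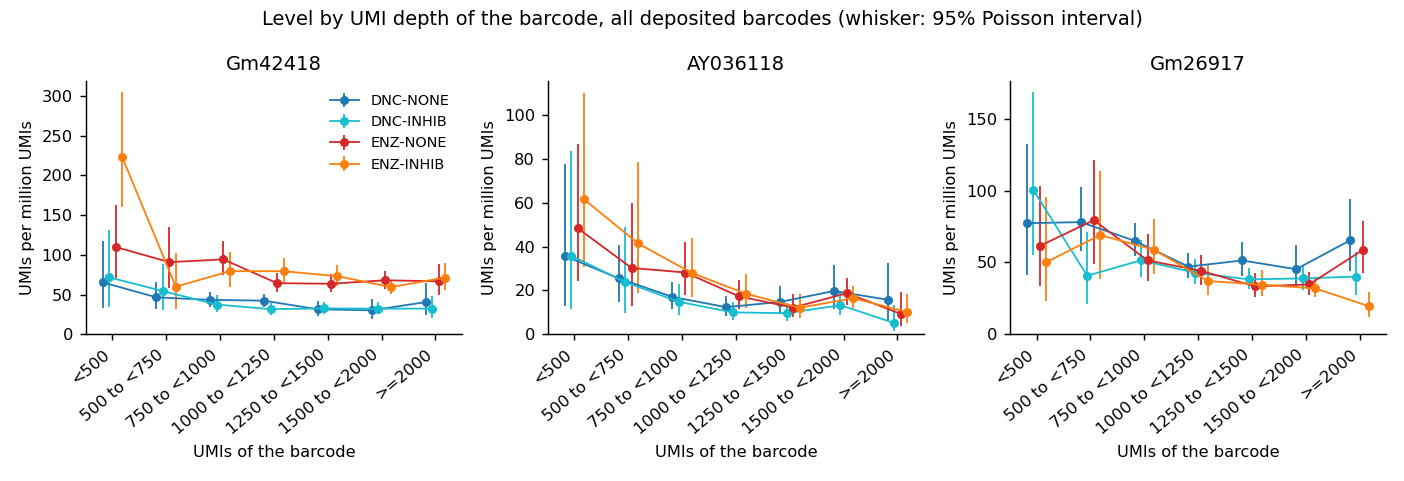
CPM of each transcript (y axis) in all deposited barcodes, grouped by the UMIs of the barcode (x axis) and by preparation (colour), with 95% Poisson intervals. In each preparation all 3 transcripts stand higher in barcodes under 500 UMIs than in each class of 1000 UMIs or more, and Gm42418 reaches 224 CPM in the shallowest ENZ-INHIB barcodes.

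Shallow barcodes also differed from kept cells in other respects. The Malat1 share, a nuclear-retained RNA, was higher in the shallow barcodes of 12 of 12 libraries (means 8.35% and 5.74% of UMIs). The mitochondrial share was higher in 11 of 12 (1.39% and 1.08%), and the share of ribosomal protein transcripts was lower in 12 of 12 (3.27% and 4.23%). The microglia markers took 3.93% of UMIs in shallow barcodes and 3.69% in kept cells. The part of these shares in the levels of the members was not tested.

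Among kept cells depth made no detectable difference. Between the lowest and the highest depth tertile of a library the mean log2 ratio was 0.05 ± 0.33 for Gm42418, -0.16 ± 0.58 for AY036118 and 0.08 ± 0.33 for Gm26917 (SD, n = 12, exact sign-flip test over libraries, adjusted p = 0.703, 0.516 and 0.561). The all-gene median was 0.06. Fewer UMIs of AY036118 entered this split, 100 in the lowest and 166 in the highest tertile, so only large ratios could have been seen.

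The mitochondrial share, a common sign of damaged cells, was not accompanied by a detectable difference. Summed over the kept cells of a library, it took between 0.973% and 1.24% of UMIs. Its range between single cells is not given here. Between the highest and the lowest tertile by mitochondrial share the mean log2 ratio was -0.04 ± 0.30 for Gm42418, -0.13 ± 0.52 for AY036118 and -0.15 ± 0.41 for Gm26917 (SD, n = 12, exact sign-flip test over libraries, adjusted p = 0.765, 0.558 and 0.375), where the median gene had -0.05.

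The stress genes were the 19 dissociation-response genes of the study's activation list for brain cells. They took 0.590% to 1.34% of UMIs in ENZ-NONE libraries and 0.0964% to 0.266% in the other 9. The ENZ-INHIB libraries, with a stress share of 0.0964% to 0.114%, overlapped the ENZ-NONE libraries in Gm42418. Within libraries, at 1000 UMIs per cell, 13571 cells had at least 1 stress UMI and 5259 had none. The mean log2 ratio between them was 0.23 ± 0.41 for Gm42418, -0.33 ± 0.69 for AY036118 and -0.25 ± 0.40 for Gm26917 (SD, n = 12), and none passed (exact sign-flip test over libraries, adjusted p = 0.196, 0.267 and 0.177).

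Gm42418 was higher in cells with a larger Malat1 share in the tertile split, by a ratio that many genes reached. In the highest tertile of kept cells by Malat1 share it was higher than in the lowest in 11 of 12 libraries, with a mean log2 ratio of 0.29 ± 0.26 (SD, n = 12, exact sign-flip test over libraries, adjusted p = 0.0176). The median gene had a ratio of 0.10, and 21.5% of genes a ratio at least as high. The test did not set the ratio against that of the median gene. ENZ-NONE replicate 5 was the exception, with 59.3 CPM in the highest and 70.7 in the lowest tertile. With a split at the median the ratio was 0.18 and did not pass (adjusted p = 0.0725). AY036118 gave 0.32 ± 0.76 and Gm26917 0.20 ± 0.38 (exact test, adjusted p = 0.304 and 0.223). By the share of ribosomal protein transcripts, which encode the protein partners of ribosomal RNA, the highest against the lowest tertile gave -0.23 ± 0.31 for Gm42418, lower in 9 of 12 libraries, and 0.03 ± 0.68 and 0.02 ± 0.36 for AY036118 and Gm26917 (exact test, adjusted p = 0.121, 0.892 and 0.892).

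**Figure D4:**
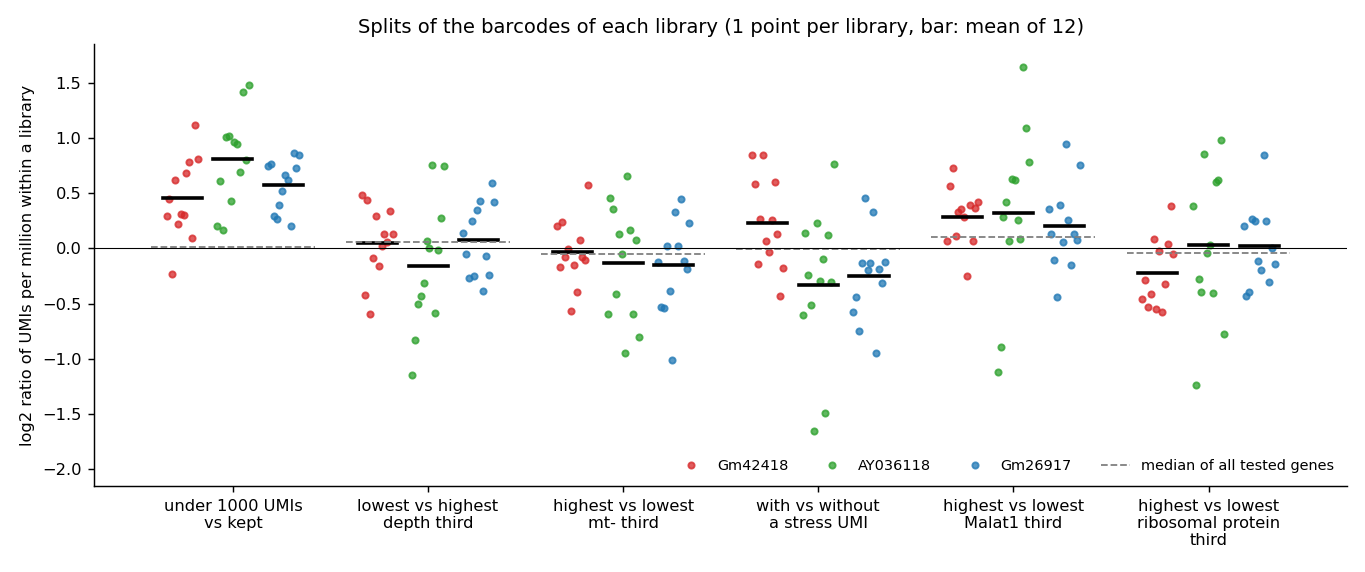
Log2 ratio of CPM between 2 classes of barcodes of the same library (y axis) for 6 splits (x axis), with 1 point per library, a black bar for the mean of 12 and a dashed line for the median of all tested genes. The points of all 3 transcripts lie above 0 in the split of shallow against kept barcodes, with 1 exception for Gm42418, and scatter around 0 in the depth and mitochondrial splits.

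Whether these within-library ratios differed between the digested and the Dounce libraries, or between batches, was tested in 36 comparisons. None passed (exact permutation test over 924 splits of libraries, smallest adjusted p = 0.405), and 4 had an unadjusted p below 0.05. The smallest was for Gm26917 and the mitochondrial split, with a mean log2 ratio of 0.12 ± 0.25 in the digested and -0.43 ± 0.36 in the Dounce libraries (SD, n = 6 each, exact p = 0.0130). The shallow-barcode ratio of AY036118 was 1.05 ± 0.33 in the digested and 0.57 ± 0.38 in the Dounce libraries (exact p = 0.0455, adjusted p = 0.405).

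Between libraries, the levels were set against the UMIs of kept cells, the median UMIs per kept cell, the mitochondrial share and the stress share. Gm42418 fell into separate clusters by method, so its relations were taken within the 6 libraries of each method, a choice made after the values were seen. In the Dounce libraries its level was lower where the median depth was higher (r = -0.90, exact permutation p = 0.00972, rho = -0.83, exact permutation p = 0.0583), and without the 2 libraries farthest from the median depth r was -0.91. The median depths were 1153 to 1270 in DNC-NONE and 1282 to 1408 in DNC-INHIB, without overlap. Depth and inhibitors therefore cannot be told apart by this r, and the permutation ignores the 2 preparations. After adjustment over 24 relations neither passed (adjusted p = 0.117 and 0.467). Over 12 libraries, each centred on the mean of its preparation, r was -0.78 and passed (permutation test, adjusted p = 0.0386 over 12 relations, with no allowance for the 4 means removed), and rho was -0.64 and did not (permutation test, adjusted p = 0.182). In the digested libraries r was -0.55 (exact permutation p = 0.232) and rho -0.60 (exact permutation p = 0.242). For kept UMIs r was -0.89 in the Dounce libraries (exact permutation p = 0.00972, adjusted p = 0.117) and -0.29 in the digested libraries. For the mitochondrial share r was 0.80 in the digested libraries (exact permutation p = 0.0556) and -0.53 in the Dounce libraries. Without the 2 libraries farthest from the median share the digested r was -0.15. For the stress share r was -0.33 in the digested and -0.40 in the Dounce libraries. The digested libraries of batch 2 had the highest median depths, 1485 to 1572 UMIs per kept cell. Of the relations of AY036118 and Gm26917 over 12 libraries none passed (smallest adjusted p = 0.575 by r and 0.423 by rho, permutation test over 12 relations). The strongest were AY036118 with kept UMIs (r = -0.52, permutation p = 0.0846, rho = -0.55, p = 0.0706, within batches r = -0.52 and -0.75) and Gm26917 with median depth (r = -0.50, permutation p = 0.0959, rho = -0.59, p = 0.0496, within batches r = -0.07 and -0.51).

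**Figure D5:**
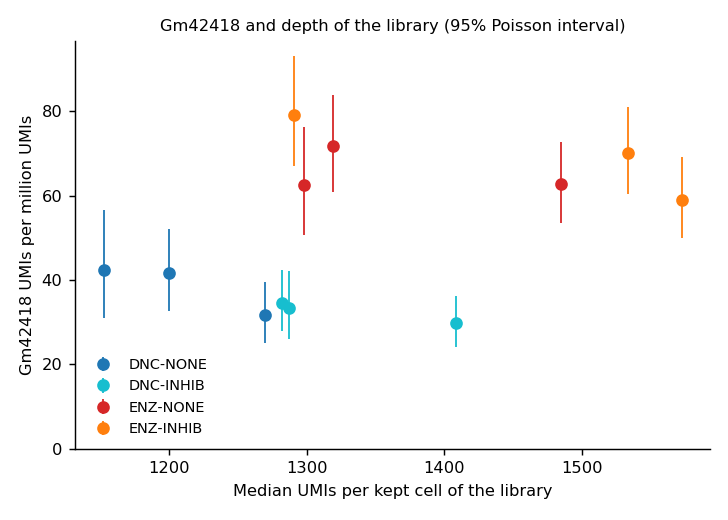
Gm42418 CPM in kept cells (y axis) against the median UMIs per kept cell of the library (x axis), with 1 point per library coloured by preparation and 95% Poisson intervals. The digested libraries, 58.9 to 79.2 CPM, lie above the Dounce libraries, 29.7 to 42.3, and within the Dounce libraries r is -0.90. All DNC-NONE libraries have a lower median depth than all DNC-INHIB libraries, so depth and inhibitors cannot be told apart there.

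The machinery that makes, processes and degrades ribosomal RNA was examined beside the transcripts. Of 22 genes of the RNA polymerase I machinery, 35 rRNA processing and nucleolar factors and 20 nuclear exosome and polyadenylation factors, all 77 were tested. None passed an adjusted p of 0.05 in the 4 preparation contrasts (edgeR), with 5, 4, 3 and 2 at an unadjusted p below 0.05 in ENZ-INHIB against DNC-INHIB, ENZ-NONE against DNC-NONE, ENZ-INHIB against ENZ-NONE and DNC-INHIB against DNC-NONE. The shares of all genes at that unadjusted p were 8.44%, 8.24%, 4.92% and 4.49%. DESeq2 called 1 gene in ENZ-NONE against DNC-NONE and none in the other preparation contrasts. The median log2 fold change of the 77 genes was -0.04 in ENZ-INHIB against DNC-INHIB and -0.02 in ENZ-NONE against DNC-NONE, and that of all genes 0.00 in both. Between batches 2 of 77 genes rose in batch 2 (2.39% of all genes did), with 18 at an unadjusted p below 0.05 where 14.3% of all genes were. Polr2f, a subunit shared by the nuclear RNA polymerases, had 42.8 to 56.4 CPM in batch 1 and 47.9 to 66.3 in batch 2, a log2 difference of 0.38 ± 0.09 (SE, adjusted p = 0.0110 by edgeR). Imp3, a component of the small-subunit processome, had 24.5 to 33.8 in batch 1 and 31.6 to 39.1 in batch 2, a difference of 0.43 ± 0.11 (adjusted p = 0.0276 by edgeR). Neither gene was called when ENZ-NONE replicate 6 or ENZ-INHIB replicate 1 was left out, and 1 list gene was called without DNC-INHIB replicate 4 or 6, ENZ-NONE replicate 4 or ENZ-INHIB replicate 3.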

How the data were processed

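Sorted brain myeloid cells of 12 mice were profiled with droplet 3′ single-cell RNA-seq (10x Chromium, v2 chemistry). The deposited UMI counts per gene and barcode were made by the authors with Cell Ranger 3.0.0 against mm10 and a filtered Ensembl annotation. Cell Ranger counts only reads that fit 1 gene of the annotation. Whether reads shared with rRNA copies elsewhere in the genome are in the counts was not checked. Kept cells had 500 genes or more and 1000 UMIs or more, with no more than 10% of UMIs mitochondrial. No doublet caller was run, and leaving out the 2% of kept cells with most UMIs in each library was an alternative. Counts of kept cells were summed per library, with 1062871 to 3233159 UMIs each, and fitted over 9884 genes with edgeR 4.0.16 (R 4.3.3, TMM, filterByExpr, robust quasi-likelihood test, Benjamini-Hochberg adjustment) with the 4 preparations, or these and batch, in the model. DESeq2 1.42.0 was an alternative. A gene was called at an adjusted p below 0.05. In simulated data for ENZ-INHIB against DNC-INHIB with 200 of 9884 genes changed, 78.4% of 2-fold and 95.5% of 4-fold changes were recovered.

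Within a library, summed UMIs of 2 classes of barcodes were compared as a log2 ratio of CPM, with 0.5 UMI added to each sum. The genes that defined a class were left out of the denominator for the mitochondrial, stress, Malat1 and ribosomal protein splits. Ratios were tested over the 12 libraries by exact sign flips and adjusted over 18 tests. Stress classes and shares of cells with a UMI were taken after thinning each kept cell to 1000 UMIs. Poisson and exact (Clopper-Pearson) intervals cover counting error only. Correlations used 100000 resamples, or all orders of 6 libraries. The named genes were the 3 members, the 5 genes with the highest r with Gm42418 and up to 4 called genes per list and contrast. The members and lists were chosen with earlier results of these data known. The 3 lists name 80 genes, of which 77 are listed in the files, and the other 3 are later names of listed genes. Of 31053 genes, 99.6% matched GENCODE by identifier. Sequences are from the GENCODE transcripts of GRCm38. One of the 5 genes most like Gm42418 across libraries is not reported here.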

Additional observations from a re-analysis of the deposited data

Results flagged for a closer look

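The following result was picked by a search over all splits, members and pairs of methods, batches and preparations. In the split of kept cells by mitochondrial share, the log2 ratio of Gm26917 was above 0 in all 3 ENZ-NONE libraries. It was below 0 in all 3 DNC-NONE libraries, and the group means differed by 0.664. In ENZ-NONE replicate 5 the ratio was 0.025, from 18 and 17 UMIs. The share of all genes with such a pattern was not counted. The difference of 0.664 was not tested for that pair of groups, where 3 libraries against 3 cannot give an exact p below 0.10. Between all digested and all Dounce libraries the same ratio differed by 0.55 (exact permutation p = 0.0130, adjusted p = 0.405 over 36 comparisons).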

How the results depend on the processing

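No paired analysis was possible because each library came from a separate animal, and the replicate numbers are labels that mark no pairs. The preparation contrasts of the 3 transcripts moved by less than the spread between replicates under DESeq2, without the low-count filter, in all deposited barcodes, without the deepest 2% of cells and with batch as a covariate. The cause of each change below was not tested. Leaving out each library in turn gave log2 fold changes for ENZ-NONE against DNC-NONE between -0.18 and 0.50 for AY036118 and between -0.44 and 0.085 for Gm26917, and for DNC-INHIB against DNC-NONE between -0.83 and -0.14 for AY036118 and between -0.44 and 0.077 for Gm26917. For Gm42418 the range was 0.69 to 0.94 for ENZ-NONE against DNC-NONE and 1.02 to 1.19 for ENZ-INHIB against DNC-INHIB. The batch differences ranged from -0.12 to 0.041 for Gm42418 and from -0.16 to 0.34 for AY036118 without 1 library, and in all deposited barcodes they were -0.12 for AY036118 and -0.46 for Gm26917.

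With each library left out, the 3 shallow-barcode ratios and the Malat1 ratio of Gm42418 stayed past the threshold. The ribosomal protein ratio ranged from -0.28 to -0.19 for Gm42418 (past the threshold without ENZ-INHIB replicate 2, adjusted p = 0.0387), from -0.058 to 0.14 for AY036118 and from -0.055 to 0.061 for Gm26917, and the mitochondrial ratio of Gm42418 from -0.092 to 0.012. With barcodes of at least 500 and under 1000 UMIs the shallow-barcode ratio of Gm42418 was 0.32 and did not pass. With splits at the median the Malat1 ratio of Gm42418 was 0.18 and did not pass, the depth ratio of Gm26917 was -0.027 and the mitochondrial ratio of AY036118 was 0.11. With cells holding at least 4 of the 19 stress genes, in the libraries with at least 100 such cells, the stress ratio of Gm42418 was -0.086, and with the study's 25-gene list that of Gm26917 was 0.16. The study chose the 25 genes on these samples.

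The number of called genes among the 77 became 2 without the low-count filter and 1 with batch as a covariate in ENZ-INHIB against DNC-INHIB, 1 with DESeq2 and 1 without the filter in ENZ-NONE against DNC-NONE, and 1 without the filter in ENZ-INHIB against ENZ-NONE. Between batches it was 1 with DESeq2, 7 in all deposited barcodes and 0 to 3 without 1 library, and in ENZ-INHIB against DNC-INHIB it was 0 to 1 without 1 library (1 without DNC-NONE replicate 1, DNC-INHIB replicate 4 or ENZ-NONE replicate 6). Centred on the mean of the preparation, Gm42418 and median UMIs per kept cell gave r = -0.78 over 12 libraries (permutation test, adjusted p = 0.0386), 1 relation past the threshold. In all deposited barcodes 1 relation passed, AY036118 with UMIs per library (r = -0.77, permutation test, adjusted p = 0.0384). By Spearman's rho 3 of the 5 most alike genes were the same. Depth limits AY036118 most, at 15 to 44 UMIs per library.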
